A study of Mus musculus with 4 samples.

Results

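The unfolded protein response and the integrated stress response were examined through 40 genes in peritoneal macrophages of Dnmt1fl/fl and Dnmt1KO mice. The genes were chosen by name, as ER chaperones, stress sensors, degradation factors and targets of the ATF4 pathway, and each was found as a row of the count table, 40 of 13834 rows. After a filter on low counts 39 of the 40 were tested, among 12542 genes in all, and the gene that did not pass was Chac1.

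The endoplasmic reticulum (ER) folds secreted and membrane proteins, and 3 sensors in its membrane report when folding falls behind: IRE1 (the product of Ern1), ATF6 and PERK (the product of Eif2ak3). IRE1 splices Xbp1 mRNA, ATF6 is cut free to enter the nucleus, and both raise genes for chaperones and for the degradation of misfolded proteins. PERK, and the amino acid sensor GCN2 (the product of Eif2ak4), phosphorylate the initiation factor eIF2, which slows general translation and favors that of ATF4, the activator of Ddit3, Trib3, Asns, Chac1 and Sesn2 in what is called the integrated stress response. In macrophages these arms are known for their activity under lipid load and inflammatory stimulation, and IRE1 also serves cytokine production there.

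RNA of 4 samples was sequenced, 2 from Dnmt1fl/fl mice and 2 from Dnmt1KO mice. Both genotypes carry the floxed Dnmt1 gene, the maintenance DNA methyltransferase, and Dnmt1KO mice also express Cre recombinase under the LysM promoter, which acts in macrophages, monocytes and neutrophils. The controls, labelled wt for genotype, are thus floxed mice. Mice for such isolations were 10 weeks old and received thioglycolate broth, which draws leukocytes into the abdominal cavity, 3 days before the cells were washed out, and no sorting step is described. The labels do not say that the 2 samples of a genotype came from separate animals, so the p-values measure only the spread between these samples. Values are given below as CPM, counts relative to the total of the library, scaled between samples with edgeR's TMM method, with replicate 1 before replicate 2.

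Totals per sample were between 20228071 and 24198943 counts, and 3 counts, the floor used here, correspond to 0.124 to 0.148 CPM by library total. Dnmt1 itself was at 86.6 and 67.0 CPM in the Dnmt1fl/fl samples and at 37.0 and 42.7 CPM in the Dnmt1KO samples. Both Dnmt1KO samples were below both controls, and the mean was 51.9% of that in Dnmt1fl/fl (39.8 ± 4.07 against 76.8 ± 13.9 CPM, SD, n = 2). The log2 fold change of Dnmt1 was -0.95 with a standard error of 0.24, and its adjusted p in edgeR over all genes was 1.00. All 8 macrophage markers listed (Adgre1, Csf1r, Cd68, Itgam, Mertk, Fcgr1, Cd14 and Lyz2) were detected, with sums above those of every other cell type listed in each sample. They summed to 35427 and 34474 CPM in Dnmt1fl/fl and to 18067 and 21390 CPM in Dnmt1KO, most of it Lyz2, whose promoter drives the Cre, at 29461 and 28492 CPM in Dnmt1fl/fl and at 11454 and 15675 CPM in Dnmt1KO. Without Lyz2 the other 7 summed to 5966 and 5982 CPM in Dnmt1fl/fl and to 6614 and 5715 CPM in Dnmt1KO. Dnmt1KO replicate 1 stood apart from the other libraries, being the highest of the 4 samples in 38.8% of all genes tested and the lowest in 39.6%. Of 8 neutrophil markers 6 were in the table (Ngp and Camp were not), and they summed to 56.3 and 181 CPM in Dnmt1fl/fl and to 716 and 57.8 CPM in Dnmt1KO. S100a9, an abundant neutrophil protein, was at 5.54, 60.3, 323 and 8.31 CPM in the order Dnmt1fl/fl 1, Dnmt1fl/fl 2, Dnmt1KO 1 and Dnmt1KO 2. B cell markers (6 of 6 in the table) ran the other way in Dnmt1KO, with sums of 202 and 250 CPM in Dnmt1fl/fl and 94.9 and 297 CPM in Dnmt1KO. Plasma cells, which are rich in ER proteins, were read from 6 markers with sums of 196, 154, 326 and 138 CPM in that order, of which Sdc1, a gene that macrophages also express, made up 171, 132, 309 and 114 CPM. Their defining markers Jchain, Mzb1, Tnfrsf17 and Derl3 were each at or below 7.83 CPM in every sample. T and NK cell markers (6 of 6) summed to between 17.5 and 26.9 CPM, eosinophil markers (3 of 5, without Epx and Prg2) to between 7.74 and 14.05 CPM, mast cell markers (5 of 5) to between 6.47 and 8.31 CPM, and mesothelial and stromal markers (5 of 5) to between 16.7 and 67.0 CPM, the last value in Dnmt1KO replicate 1. In bulk RNA, fewer cells of a type and less RNA per cell cannot be told apart.

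Some of these genes hold, in their promoters, sequence elements known from the pathways, and the elements found are printed so that they can be set beside the levels of the same genes. Of the 40 genes 35 had an entry among RefSeq promoters of build GRCm38.p6 (34 by symbol and Ero1lb under its current name), each running from 250 bases before to 50 bases after a transcription start, with 37 promoters in all. Both strands were searched for the ER stress response element (ERSE), which is CCAAT, a gap of 9 bases and CCACG, the site of the factor NF-Y beside ATF6 or XBP1. It was present in full in 9 of the 37 promoters (24.3%) and in 39 of all 32851 promoters of the table (0.119%). The elements are given 5′ to 3′ on the strand where they read forward, with CCAAT and CCACG in capitals and 10 flanking bases on each side.
Hspa5, chr2:34772015-34772053, plus strand: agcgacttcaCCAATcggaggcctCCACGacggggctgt
Hsp90b1, chr10:86705628-86705666, minus strand: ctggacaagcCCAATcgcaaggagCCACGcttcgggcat
Hsp90b1, chr10:86705523-86705561, plus strand: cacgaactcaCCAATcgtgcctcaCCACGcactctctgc
Calr, chr8:84847065-84847103, plus strand: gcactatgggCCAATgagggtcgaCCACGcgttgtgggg
Canx, chr11:50325790-50325828, minus strand: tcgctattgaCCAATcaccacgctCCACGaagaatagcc
Dnajc3, chr14:118937817-118937855, plus strand: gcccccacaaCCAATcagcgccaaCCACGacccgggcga
Creld2, chr15:88819510-88819548, minus strand: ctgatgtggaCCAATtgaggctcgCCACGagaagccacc
Pdia6, chr12:17266481-17266519, plus strand: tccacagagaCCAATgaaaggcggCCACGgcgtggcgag
Ero1lb, chr13:12565672-12565710, minus strand: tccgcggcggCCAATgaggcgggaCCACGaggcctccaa
Syvn1, chr19:6046522-6046560, plus strand: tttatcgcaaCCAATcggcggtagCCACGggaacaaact

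The element lay between 212 and 26 bases before the start in these genes, at 65 to 47 bases in Hspa5. Its second part alone, CCACG, which every full element also contains, was in 73.0% of the 37 promoters and in 32.8% of all promoters. The core of another XBP1 and ATF6 site, TGACGTGG, which contains CCACG on its other strand, was in none of the 37 and in 0.676% of all.

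Genes downstream of ATF4 are known to carry a C/EBP-ATF response element. Searched as TGATGNAA, it was found in 5 of the 37 promoters (13.5%) and in 3.97% of all promoters, and in its stricter form TGATGCAA, which the looser form includes, in 3 of the 37 (8.11%) and in 0.895% of all. Of the 35 genes with a promoter entry, 21 held neither a full ERSE nor TGATGNAA. The 5 promoters with TGATGNAA are shown with the element in capitals, and those of Chac1, Nupr1 and Herpud1 are of the stricter form.
Chac1, chr2:119351039-119351066, minus strand: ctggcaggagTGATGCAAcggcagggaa
Nupr1, chr7:126625563-126625590, plus strand: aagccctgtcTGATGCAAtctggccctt
Herpud1, chr8:94386307-94386334, minus strand: gggtgcgggcTGATGCAAcccgccgtgg
Asns, chr6:7693215-7693242, minus strand: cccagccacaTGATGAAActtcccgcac
Trib3, chr2:152344029-152344056, plus strand: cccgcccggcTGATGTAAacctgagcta

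The promoters were rich in CpG, the dinucleotide that Dnmt1 methylates, with a median of 23 per 300 bases against 7 over all promoters of the table. Dnajc3 held the most, 39, and Nupr1 the fewest, 6. Methylation was not measured in the data analysed here.

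In the comparison of Dnmt1KO with Dnmt1fl/fl macrophages, no tested gene of either stress response passed the test. ER chaperones, disulfide enzymes, sensors and ATF4 targets were without a call. In 36 of the 39 genes the 2 Dnmt1KO samples differed from each other by more than the genotypes did, as in 84.1% of all genes. By edgeR's quasi-likelihood test, adjusted after Benjamini and Hochberg over all genes, 0 of the 39 genes passed a threshold of 0.05, and 0 passed it without adjustment. Over all genes tested these counts were 0 of 12542 (0%) and 35 of 12542 (0.279%). DESeq2 and limma-voom likewise gave 0 genes of the 39 by either measure. The median log2 fold change of the 39 genes, Dnmt1KO over Dnmt1fl/fl, was 0.09 against 0.00 over all genes, and the standard errors of single genes were between 0.20 and 0.57. Values of 0.2 or more on the log2 scale were seen in 9 of the 39 genes, against 21.8% of all genes, and values of -0.2 or less in 3, against 19.7% of all genes. The log2 fold change was above 0 in 30 of 39 genes (50.9% of all genes) and below 0 in 9. With counts scaled by library totals only, which moved the median of all genes to -0.06 and that of the 39 to 0.02, it was above 0 in 21 of 39 genes (39.3% of all genes). Without Dnmt1KO replicate 1 it was above 0 in 12 of 39 genes (49.6% of all genes), and without Dnmt1fl/fl replicate 1 in 17 (54.7% of all genes). Without Dnmt1KO replicate 2 it was above 0 in 31 (48.7% of all genes), and without Dnmt1fl/fl replicate 2 in 33 (51.9% of all genes). With a correction for transcript length it was above 0 in 33 of 39 genes (58.9% of all genes). For a single gene, exact two-sided permutation of 2 against 2 samples reaches no p below 0.333.

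Both Dnmt1KO samples lay above both controls in 3 of the 39 genes, near the 8.14% of all genes with that order, and below them in 1, where 8.56% of all genes had that order. The 3 higher genes were Sesn2, Syvn1 and Herpud1, and the lower gene was Herpud2. With library totals only, Sesn2 was the single higher gene and Herpud2 the lower one (5.94% and 10.6% of all genes). The plot of log2 fold changes by gene shows how far each of them moved when a Dnmt1KO sample was left out.

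**Figure D1:**
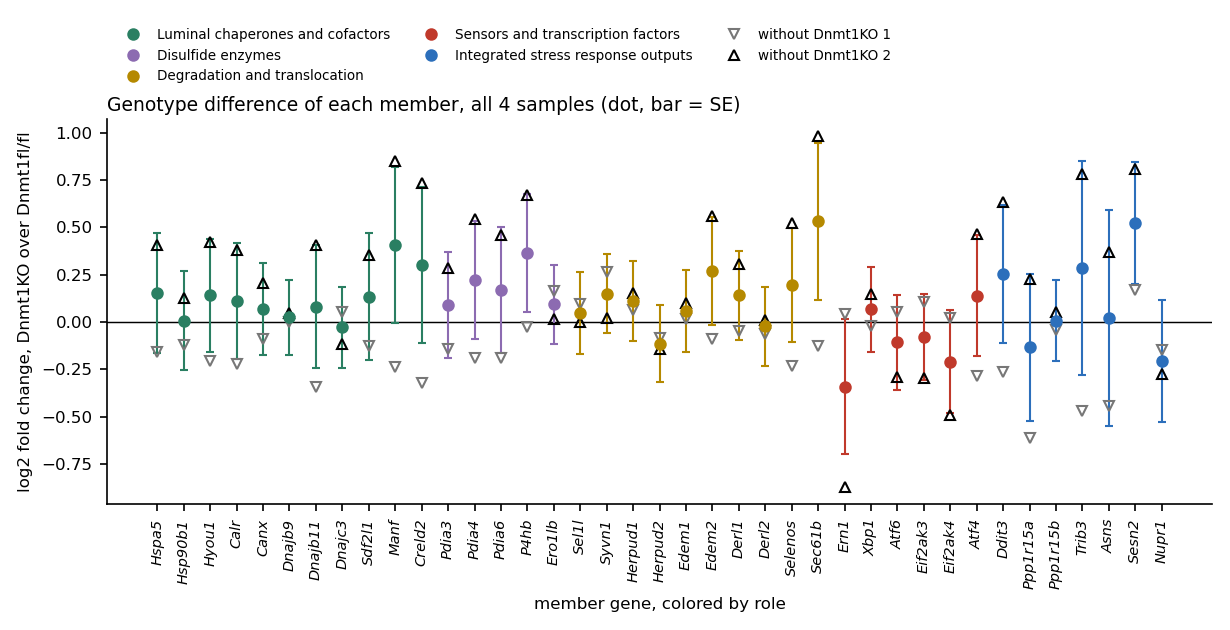
Log2 fold change of Dnmt1KO over Dnmt1fl/fl for the 39 genes tested (filled dots, bars are standard errors from edgeR, 2 samples per genotype), colored by role, with the value after leaving out Dnmt1KO replicate 1 (gray triangles pointing down) or Dnmt1KO replicate 2 (black triangles pointing up). The median was 0.09 with all samples, -0.09 without replicate 1 and 0.29 without replicate 2, so that most triangles lie on opposite sides of the dots.

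The luminal chaperones had the highest summed level of the 5 roles, 2687 and 3468 CPM in Dnmt1fl/fl and 3790 and 2777 CPM in Dnmt1KO. Per kilobase of transcript, Calr, the lectin chaperone calreticulin, had the highest level of the 40 genes in Dnmt1fl/fl at 317 CPM per kilobase, ahead of the disulfide isomerase Pdia3 at 230. Hspa5, which encodes BiP, the HSP70 chaperone that holds the sensors inactive, was at 591 and 838 CPM in Dnmt1fl/fl and at 949 and 641 CPM in Dnmt1KO. The ranges of the genotypes overlapped in part, with Dnmt1KO replicate 1 above both controls and replicate 2 between them, and the log2 fold change was 0.15, with a standard error of 0.32 (edgeR adjusted p = 1.00). Hsp90b1, the ER member of the HSP90 family, was at 602 and 778 CPM in Dnmt1fl/fl and at 753 and 635 CPM in Dnmt1KO, a log2 fold change of 0.01 (standard error 0.26) that was -0.07 with library totals only. Its counts are uncertain in part, since 15.7% of its exon bases are shared with other annotated genes and the deposited values were not whole numbers in any sample. Calr was at 606 and 780 CPM in Dnmt1fl/fl and at 902 and 596 CPM in Dnmt1KO.

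The same order, Dnmt1KO replicate 1 and Dnmt1fl/fl replicate 2 above the other samples, was seen in 10 of the 11 luminal chaperones and cofactors, the exception being the co-chaperone Dnajc3, where Dnmt1KO replicate 1 was lowest. Sdf2l1, a BiP cofactor that ER stress induces strongly, was at 41.8 and 71.7 CPM in Dnmt1fl/fl and at 72.6 and 52.0 CPM in Dnmt1KO. Creld2, another stress-induced ER protein, was at 20.3 and 30.8 CPM in Dnmt1fl/fl and at 42.5 and 20.5 CPM in Dnmt1KO. Manf, a secreted factor released under ER stress, was at 47.6 and 69.0 CPM in Dnmt1fl/fl and at 105 and 49.6 CPM in Dnmt1KO, and its log2 fold change was 0.41, with a standard error of 0.41 (edgeR adjusted p = 1.00). In all 3 the high Dnmt1KO sample was replicate 1 and the other lay among the controls. Dnajb9, the cofactor that returns BiP to IRE1 and a sensitive target of XBP1, was by contrast nearly level at 40.9, 43.6, 43.6 and 42.4 CPM over the 4 samples. Over the whole group log2 fold changes were between -0.03 and 0.41.

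Disulfide enzymes, which form and exchange the cystine bonds of folding proteins, followed the chaperones. P4hb, the isomerase also known as PDI, was at 570 and 663 CPM in Dnmt1fl/fl and at 982 and 607 CPM in Dnmt1KO, and its log2 fold change was 0.37, with a standard error of 0.31 (edgeR adjusted p = 1.00). Pdia3, Pdia4 and Pdia6 had log2 fold changes between 0.09 and 0.22 and the same 2 samples on top. Ero1lb, an oxidase that recharges the isomerases, differed little and was highest in Dnmt1KO replicate 2.

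**Figure D2:**
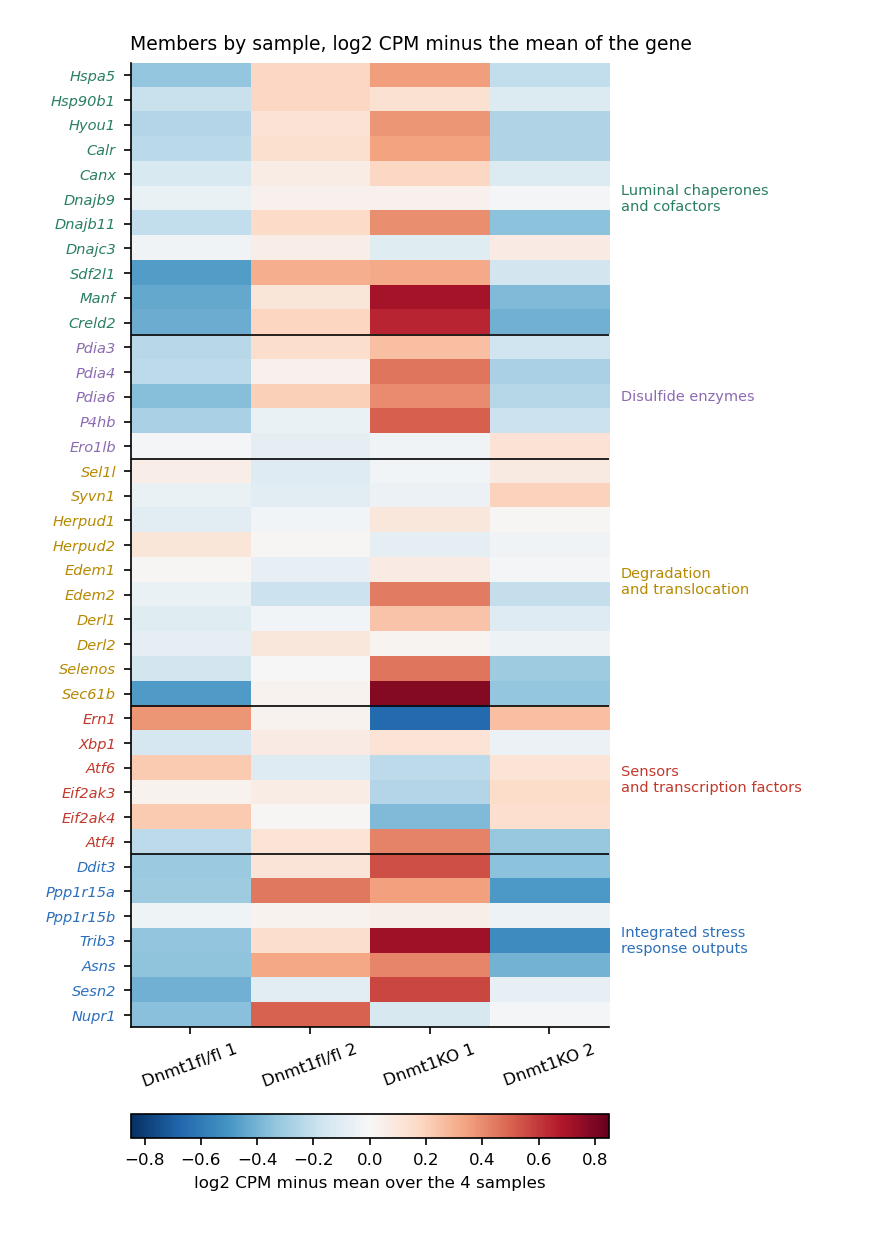
Each row is a gene and each column a sample, colored by the log2 CPM minus the mean of that gene over the 4 samples (blue below, red above), with genes grouped by role. Most chaperone and disulfide rows are red in Dnmt1KO replicate 1, paler red in Dnmt1fl/fl replicate 2 and blue in the other 2 samples (Dnajc3, Ero1lb, Hsp90b1 and P4hb differ). Ern1 and Eif2ak4 are bluest in Dnmt1KO replicate 1, and no group of rows is split between the first 2 and the last 2 columns.

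Degradation and translocation genes had a median difference between the Dnmt1KO samples of 0.08 on the log2 scale, and held 3 of the 4 genes whose genotypes did not overlap. Syvn1, the ubiquitin ligase HRD1 of ER-associated degradation, was at 38.4 and 37.5 CPM in Dnmt1fl/fl and at 38.5 and 45.7 CPM in Dnmt1KO. The gap between the nearest samples of the 2 genotypes was far smaller than the gap between the Dnmt1KO samples, and the log2 fold change was 0.15 (standard error 0.21). Herpud1, which links misfolded proteins to that ligase, was at 89.8 and 94.2 CPM in Dnmt1fl/fl and at 102 and 96.4 CPM in Dnmt1KO, a log2 fold change of 0.11 (standard error 0.21). Its relative Herpud2 was at 67.6 and 63.3 CPM in Dnmt1fl/fl and at 59.3 and 61.7 CPM in Dnmt1KO, a log2 fold change of -0.11 (standard error 0.20). The adjusted p of all 3 was 1.00 from edgeR. Sec61b, a subunit of the channel through which new proteins enter the ER, had the highest log2 fold change of the 39 genes, 0.53 with a standard error of 0.41 (edgeR adjusted p = 1.00). It was at 44.7 and 63.6 CPM in Dnmt1fl/fl and at 107 and 49.7 CPM in Dnmt1KO, so that the Dnmt1KO samples lay on either side of the controls' higher value. Edem2 and Selenos likewise had their highest value in Dnmt1KO replicate 1, while Sel1l, Edem1 and Derl2 had log2 fold changes between -0.02 and 0.06.

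The sensors and their transcription factors did not move as a group. Ern1 (chromosome 11, 106394650 to 106487852) had the lowest log2 fold change of the 39 genes, -0.34 with a standard error of 0.35 (edgeR adjusted p = 1.00). It was at 99.3 and 78.3 CPM in Dnmt1fl/fl and at 48.6 and 91.6 CPM in Dnmt1KO, so that only Dnmt1KO replicate 1 was low and replicate 2 lay between the controls. Atf6 was at 129 and 102 CPM in Dnmt1fl/fl and at 94.6 and 120 CPM in Dnmt1KO. Eif2ak3, the gene of PERK, was at 44.6 and 45.6 CPM in Dnmt1fl/fl and at 36.8 and 48.6 CPM in Dnmt1KO. Eif2ak4, the gene of GCN2, was at 22.3 and 19.2 CPM in Dnmt1fl/fl and at 14.7 and 21.1 CPM in Dnmt1KO, a log2 fold change of -0.21 (standard error 0.27). All 4 sensor and kinase genes had their lowest value in Dnmt1KO replicate 1, against 39.6% of all genes.

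The transcription factors had other orders. Xbp1 was at 146 and 168 CPM in Dnmt1fl/fl and at 174 and 155 CPM in Dnmt1KO, and gene counts cannot tell spliced from unspliced Xbp1. Atf4, whose protein is set mainly by translation, was at 128 and 163 CPM in Dnmt1fl/fl and at 201 and 120 CPM in Dnmt1KO. Both were highest in Dnmt1KO replicate 1, and neither log2 fold change (0.07 for Xbp1, which was -0.01 with library totals only, and 0.14 for Atf4) exceeded its standard error.

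**Figure D3:**
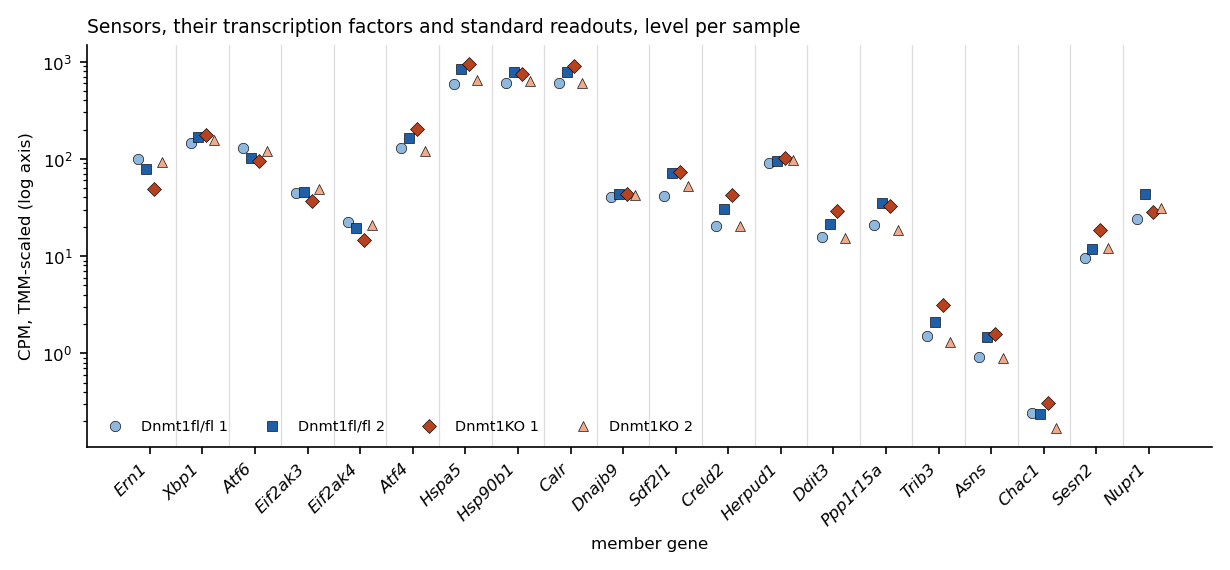
CPM (log axis) of the sensors, their transcription factors and standard readouts of the 2 responses in each sample, Dnmt1fl/fl replicates 1 and 2 as blue circles and squares and Dnmt1KO replicates 1 and 2 as red diamonds and orange triangles. Chac1, Asns and Trib3 are lowest and Hspa5, Hsp90b1 and Calr highest, and the genotypes overlap for every gene drawn except Herpud1 and Sesn2, which had both Dnmt1KO symbols above both Dnmt1fl/fl symbols.

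The outputs of the integrated stress response were mostly low. Chac1 (chromosome 2, 119351229 to 119354381), a glutathione-degrading enzyme and a sensitive ATF4 target, had 5 and 6 counts in Dnmt1fl/fl and 6 and 4 counts in Dnmt1KO, close to the floor of 3, and it was not tested. Asns, which makes asparagine, was at 0.93 and 1.47 CPM in Dnmt1fl/fl and at 1.57 and 0.89 CPM in Dnmt1KO, from 19 to 37 counts a sample. Trib3, a pseudokinase that restrains the response, was at 1.51 and 2.11 CPM in Dnmt1fl/fl and at 3.13 and 1.31 CPM in Dnmt1KO, and the difference between the Dnmt1KO samples, 2.38-fold, was the highest of the 39 genes. Ddit3, the gene of the pro-apoptotic factor CHOP, was at 15.8 and 21.2 CPM in Dnmt1fl/fl and at 28.8 and 15.5 CPM in Dnmt1KO, a log2 fold change of 0.25 (standard error 0.36). Ddit3 shares 10.9% of its exon bases with other annotated genes.

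Ppp1r15a, whose product GADD34 returns eIF2 to its active form, was at 20.9 and 35.3 CPM in Dnmt1fl/fl and at 32.9 and 18.4 CPM in Dnmt1KO, a log2 fold change of -0.13 (standard error 0.39). Its constitutive relative Ppp1r15b was level, with a log2 fold change of 0.01. Nupr1, a stress-induced nuclear protein, was at 24.2 and 43.9 CPM in Dnmt1fl/fl and at 28.3 and 30.8 CPM in Dnmt1KO, a log2 fold change of -0.21 (standard error 0.32), with Dnmt1fl/fl replicate 2 alone at the top. Sesn2, a leucine sensor that restrains mTORC1 and a target of ATF4, was the member of this group whose genotypes did not overlap, at 9.55 and 11.8 CPM in Dnmt1fl/fl and at 18.7 and 12.1 CPM in Dnmt1KO. Its log2 fold change was 0.52, with a standard error of 0.32 (edgeR adjusted p = 1.00), and its unadjusted p in edgeR's model of all genes, 0.158, was the lowest of the 39 genes. Without Dnmt1KO replicate 1 it was 0.17, and without replicate 2 it was 0.81.

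Single samples of a genotype differed by more than the genotype means in most genes. For 36 of the 39 genes the Dnmt1KO samples differed from each other by more than the genotype means did on the log2 scale, where 84.1% of all genes did, and for 28 of 39 the Dnmt1fl/fl samples did so, where 57.5% of all genes did. The median absolute difference was 0.52 between the Dnmt1KO samples, 0.31 between the Dnmt1fl/fl samples and 0.12 between genotypes, and over all genes tested the same medians were 0.48, 0.21 and 0.17. A difference of single samples varies more than a difference of means, which bears on this comparison.

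Most of the genes shared 1 order of samples. In 25 of the 39 genes Dnmt1KO replicate 1 and Dnmt1fl/fl replicate 2 were both above the other 2 samples, an order found in 28.7% of all genes, and in 5 they were both below, against 29.1% of all genes. By role the first order held in 10 of 11 chaperones, 4 of 5 disulfide enzymes, 4 of 10 degradation and translocation genes, 2 of 6 sensors and transcription factors and 5 of 7 outputs. Dnmt1KO replicate 1 was the highest sample in 26 of 39 genes, against 38.8% of all genes, and in 18 of 39 it was above Dnmt1KO replicate 2 by 0.5 or more (log2), against 22.2% of all genes. Summed over the 40 genes, the level was 6112 and 7325 CPM in Dnmt1fl/fl and 8278 and 6276 CPM in Dnmt1KO. The neutrophil marker sums given above had the same order, from 56.3 and 57.8 CPM in Dnmt1fl/fl replicate 1 and Dnmt1KO replicate 2 to 181 and 716 CPM in Dnmt1fl/fl replicate 2 and Dnmt1KO replicate 1, as had those of mesothelial and stromal markers (24.7, 32.7, 67.0 and 16.7 CPM in the order Dnmt1fl/fl 1, Dnmt1fl/fl 2, Dnmt1KO 1 and Dnmt1KO 2) and of T and NK cell markers (17.5, 26.9, 25.6 and 21.3 CPM). The sums of macrophage, B cell, plasma cell, eosinophil and mast cell markers did not have this order. The part of any of these cells in the levels of the 39 genes was not tested.

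**Figure D4:**
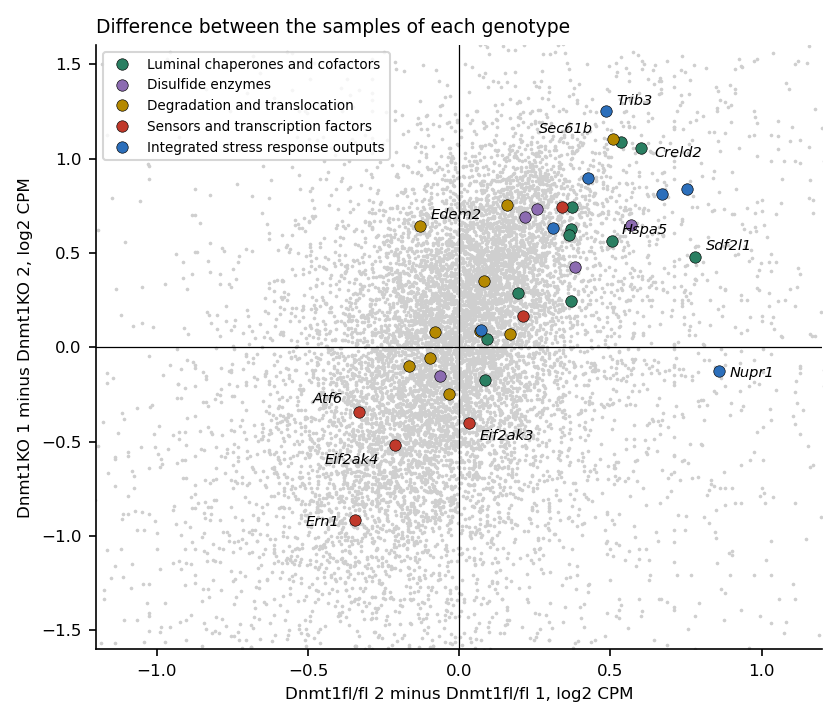
Difference between the Dnmt1KO samples (vertical axis, log2 CPM of replicate 1 minus replicate 2) against the difference between the Dnmt1fl/fl samples (horizontal axis, replicate 2 minus replicate 1) for 11300 genes inside the axes (gray) and the 39 stress response genes (colored by role); 1242 genes lie outside. Most chaperones, disulfide enzymes and outputs lie in the upper right, where Dnmt1KO replicate 1 and Dnmt1fl/fl replicate 2 were the higher samples, and Ern1, Eif2ak4 and Atf6 lie in the lower left.

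Transcript length moved with these differences. Over 12382 genes with an annotated length, the difference between the Dnmt1KO samples (replicate 1 minus replicate 2, log2) had a Spearman correlation of -0.41 with length and a Pearson correlation of -0.31 with its logarithm, and over the 39 genes the values were -0.73 and -0.72. These are descriptions across genes that share 2 libraries. The 10% of genes with the shortest transcripts had a median difference of 0.55 and the 10% with the longest a median of -0.62. Among the 39 genes, Sec61b has the shortest transcript at 723 bases and a difference of 1.11, whereas Ern1 with 6946 bases had -0.91, Eif2ak4 with 5298 bases -0.52 and Atf6 with 7246 bases -0.34. All genes in groups with median lengths of 4153, 4780.5, 5837.5 and 8219 bases had median differences of -0.11, -0.21, -0.38 and -0.62. Ern1, Eif2ak4 and Eif2ak3 (4513 bases, -0.40) lay below the medians of the groups nearest in length, and Atf6 lay above them. The part of length in their low values in Dnmt1KO replicate 1 was not tested. CPM were also corrected for length, but the trend was taken out of values already scaled for it, so those CPM are not used.

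The median difference between the Dnmt1KO samples was -0.37 for sensors and transcription factors, whose median length was 4905.5 bases. It was 0.08 for degradation and translocation genes (3565 bases) and 0.65 for disulfide enzymes (2770 bases). For the chaperones it was 0.57 (2513 bases), for the outputs 0.81 (2449 bases) and over all genes -0.01 (3361 bases). Hyou1 with 4925 bases had 0.63 and Hspa5 with 3672 bases 0.57, while all genes of similar length had medians below 0. Trib3 with 2026 bases had 1.25. What separates the libraries by length was not tested. With the length trend entered in the model, the log2 fold change between genotypes stayed without a call for all 39 genes. Its median was then 0.09, against 0.05 over all genes. Without that trend in the model, the fold change had a Spearman correlation with length of -0.58 over the 39 genes and of -0.33 over all genes.

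**Figure D5:**
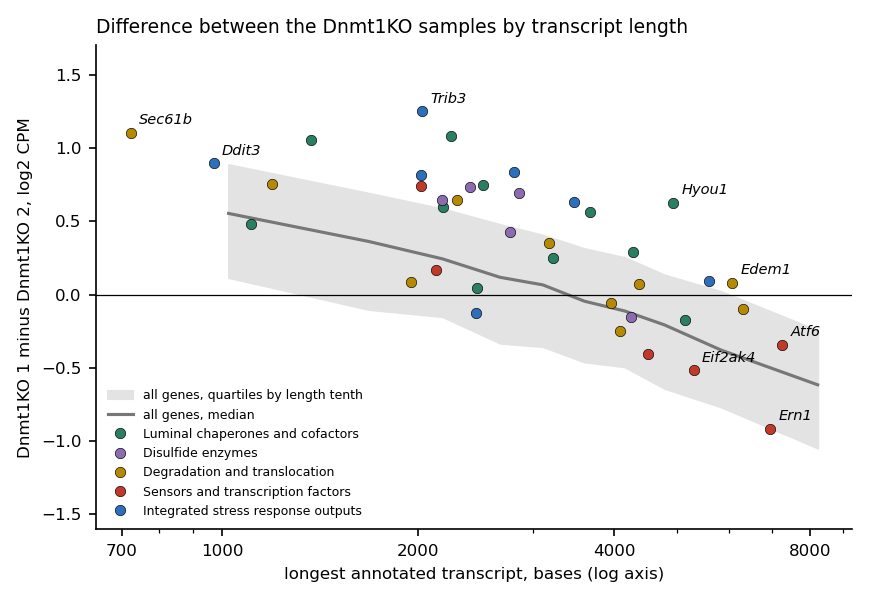
Difference between the Dnmt1KO samples (log2 CPM, replicate 1 minus replicate 2) against the length of the longest annotated transcript (log axis) for the 39 genes, colored by role, over the median and quartiles of all genes in 10 groups of rising length (gray). The gray median runs from 0.55 to -0.62, Ern1 and Eif2ak4 lie near it or below, and Hyou1, Trib3 and most chaperones lie above it.

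Leaving out Dnmt1KO replicate 2, so that replicate 1 stood alone for its genotype and was assumed to vary like the controls, gave an adjusted p under 0.05 in edgeR for 3 of the 39 genes, against 8.32% of all genes in that comparison. They were Sec61b, at 0.98 on the log2 scale (adjusted p = 0.0262 from edgeR), Manf, with 0.85 (adjusted p = 0.0456 from edgeR), and Ern1, with -0.87 (adjusted p = 0.0374 from edgeR). An unadjusted p under 0.05 was reached by 10 of the 39 genes, against 27.6% of all genes. Without Dnmt1KO replicate 1 the log2 fold changes were -0.13 for Sec61b, -0.24 for Manf and 0.04 for Ern1. The 3 calls therefore rest on Dnmt1KO replicate 1, the library with 716 CPM of neutrophil markers, whose part in them was not tested. The median log2 fold change of the 39 genes was 0.29 without Dnmt1KO replicate 2, -0.09 without Dnmt1KO replicate 1, 0.28 without Dnmt1fl/fl replicate 2 and -0.03 without Dnmt1fl/fl replicate 1.

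The other genes of the pathway, taken from 5 lists that exclude the 40, also gave no call. Of 96 symbols listed 89 were in the table and 86 were tested, and 0 passed 0.05 in edgeR with or without adjustment, with a median log2 fold change of 0.11. Both Dnmt1KO samples were above both controls in 8 of the 86 and below them in 4, against 8.14% and 8.56% of all genes. Among ER folding and glycoprotein quality control genes (18 of 18 tested) the values were between 1.15 for Fkbp14, a prolyl isomerase at only 0.049, 0.48, 0.81 and 0.42 CPM over the 4 samples, whose value depends on the prior count, and -0.21 for Dnajc1, a membrane co-chaperone. Among degradation and translocation genes (25 of 27 tested) they were between 0.32 for Spcs1, a signal peptidase subunit, and -0.06 for Ufd1, a partner of the extraction factor VCP. Among sensor control genes and ER-bound transcription factors (10 of 10 tested) they were between 0.33 for Tmbim6, an ER membrane protein that limits cell death, and -0.24 for Map3k5, the kinase ASK1. Among genes of eIF2 and its kinases (11 of 12 tested) they were between 0.33 for Eif2b4, an eIF2B subunit, and -0.45 for Eif2ak2, the double-stranded RNA sensor PKR. Eif2ak2 was at 55.5 and 77.3 CPM in Dnmt1fl/fl and at 43.3 and 53.8 CPM in Dnmt1KO, without overlap. Among ATF4 partners and amino acid targets (22 of 29 tested) they were between 0.68 for Ddit4, an mTORC1 inhibitor, and -0.32 for Slc1a5, a glutamine transporter. Ddit4 was at 5.02 and 3.31 CPM in Dnmt1fl/fl and at 7.83 and 5.47 CPM in Dnmt1KO, without overlap.

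Genes outside the ER were listed for contrast. Of 12 cytosolic heat shock genes 0 had an unadjusted p under 0.05, log2 fold changes were between -0.44 for Hspa1b, whose reads are shared with its near-identical copy Hspa1a, and 0.61 for Hspb1, and 10 of the 12 had Dnmt1KO replicate 1 and Dnmt1fl/fl replicate 2 as their higher samples. Of 9 mitochondrial chaperones and proteases 0 had an unadjusted p under 0.05, values were between -0.17 for Yme1l1 and 0.38 for Hspe1, and 4 of 9 had that order. The order of samples was thus found in chaperones of the cytosol as well as of the ER.

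Levels of genes with and without a full ERSE in the promoter are given side by side, and their difference was not tested. The 9 genes with the element had a median log2 fold change of 0.11 between genotypes, with 8 of 9 above 0, a median difference of 0.29 between the Dnmt1KO samples, with replicate 1 higher in 6 of 9, and a median difference of 0.36 between the Dnmt1fl/fl samples (replicate 2 minus replicate 1). The 25 tested genes with a promoter entry and no full ERSE had medians of 0.08, 0.48 and 0.22, with 18 of 25 above 0 between genotypes and Dnmt1KO replicate 1 higher in 19 of 25. The 4 tested genes with TGATGNAA (Nupr1, Herpud1, Asns and Trib3) had log2 fold changes between -0.21 and 0.29.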

How the data were processed

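RNA of 4 samples of peritoneal macrophages was measured. The authors aligned paired-end reads with HISAT2 2.0.5 and counted them per gene with featureCounts 1.5.0-p3, and the submitters' processing notes also name DESeq2 1.20.0 and build mm10. The deposited values are estimated counts per gene without normalization, with 72.6% to 76.4% whole numbers in a sample, and the way reads matching several genes were divided is not given in the sources used here. A shorter deposited table of 2749 rows, all identical to rows of the whole table, was not used. Whether counting used strand is not given, so overlapping and antisense genes cannot be told apart.

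Counts were rounded, filtered with filterByExpr, scaled with TMM and compared with the two-sided quasi-likelihood test of edgeR 4.0.16 (R 4.3.3), Benjamini-Hochberg adjusted over 12542 genes. Also tried were limma-voom (limma 3.58.1), DESeq2 1.42.0, other scalings and filters, a replicate block, a loess correction for length (span 0.5, longest GENCODE M21 transcript, known for 98.5% of genes) and leaving out each sample. The models were tested on simulated data. Genes named were the sensors, standard readouts, genes whose genotypes did not overlap and the 5 largest log2 fold changes in each direction; of other pathway lists, the largest change in each direction. The genes, lists and tests were chosen with earlier results of these data known. The floor of 3 counts allows for counting error only; reads copied by PCR are not independent.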

Additional observations from a re-analysis of the deposited data

How the results depend on the processing

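No gene of the 39 had an adjusted or unadjusted p under 0.05 in any of the 11 alternatives on all 4 samples, and among the 24 tested genes whose values in every sample the report gives, 18 had the same sign of log2 fold change in all of these. The signs that turned were those of Asns (-0.0743 with library totals only, -0.0292 with limma-voom, -0.0179 with the length correction, -0.0156 with the crossed pairing and length correction and -0.0237 with the block and length correction), Atf6 (0.0431, 0.0421 and 0.0423 with the length correction alone, with the crossed pairing and with the block), Eif2ak3 (0.0008 with the length correction), and, with library totals only, Dnajb9 (-0.0477), Hsp90b1 (-0.0734) and Xbp1 (-0.0095), a scaling that moved the median of all genes from 0.00457 to -0.0624. The length correction moved that median to 0.0476 alone, to 0.0376 with the crossed pairing and to 0.0374 with the block. Over all genes DESeq2 called 1. Genes with both Dnmt1KO samples above both controls numbered 1 with library totals only. Such counts are not given with the length correction, because its CPM had the trend removed more than once. The cause was not tested.

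Leaving out each sample moved more. The calls over all genes then ran from 0 to 1061, those among the 39 genes from 0 to 3, unadjusted p-values under 0.05 among the 39 from 0 to 10, those among other pathway genes from 0 to 30, and the median log2 fold change of the 39 from -0.09 to 0.29. Of the 39 genes, those with all Dnmt1KO values above all Dnmt1fl/fl values ran from 6 to 27, and those below from 4 to 14. The 27 and 6 without Dnmt1KO replicate 2 stand against 41.0% and 41.8% of all genes, the 7 and 14 without Dnmt1KO replicate 1 against 32.4% and 32.2%, the 6 and 5 without Dnmt1fl/fl replicate 1 against 20.05% each, and the 17 and 4 without Dnmt1fl/fl replicate 2 against 23.0% and 23.4%. Of the 24, those that kept their sign were Herpud1 (0.0649 to 0.155), Herpud2 (-0.16 to -0.06), Sesn2 (0.17 to 0.81) and Syvn1 (0.02 to 0.27). The other 20 ran from -0.44 to 0.41 for Asns, -0.28 to 0.46 for Atf4, -0.29 to 0.0691 for Atf6, -0.22 to 0.38 for Calr, -0.32 to 0.73 for Creld2, -0.27 to 0.63 for Ddit3, -0.0198 to 0.076 for Dnajb9, -0.29 to 0.11 for Eif2ak3, -0.49 to 0.0236 for Eif2ak4, -0.87 to 0.0429 for Ern1, -0.16 to 0.21 for Hsp90b1, -0.16 to 0.43 for Hspa5, -0.24 to 0.85 for Manf, -0.57 to 0.29 for Nupr1, -0.0243 to 0.67 for P4hb, -0.61 to 0.30 for Ppp1r15a, -0.20 to 0.58 for Sdf2l1, -0.13 to 0.98 for Sec61b, -0.47 to 0.78 for Trib3 and -0.0327 to 0.18 for Xbp1.

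The labels tie no animal, litter or day to a replicate number, and the departures of same-numbered samples from the mean of each genotype correlated at -0.348 over genes, so the numbers were not taken as pairs. A shared batch was not tested. With the replicate block 0 genes of all and 0 of the 39 were called, and the median of the 39 was 0.09. The crossed pairing, chosen after seeing the data, called 3 genes of all and 0 of the 39. With 2 samples per genotype and a common dispersion of 0.0837 (a coefficient of variation of 28.9%), Dnmt1 itself, at a log2 fold change of -0.95, had an adjusted p of 1.00 in edgeR. Lack of a call does not show equal levels.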
